A study of Mus musculus with 16 samples.

Results

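The comparison described here is that of medial tibial subchondral bone 1 week after destabilization of the medial meniscus (DMM) with the same bone 1 week after a sham operation. Its members are the 8 arrays, of 16 in the series, whose labels give 1 week: 4 DMM and 4 sham, each from 1 joint of 1 mouse. All mice were male C57BL6, labelled WT (read as wild type) and aged 10 to 12 weeks at surgery. Both knees of a mouse had the same operation. In DMM the medial menisco-tibial ligament was transected. In the sham operation the ligament was exposed and left intact, so the control joints had been opened too, and no joint without surgery was analysed here. The other 8 arrays come from mice with the same 2 operations examined at 6 weeks. Bone was cut out by laser microdissection from 10 µm cryosections, the pieces of a joint were pooled, and the arrays read 1 colour, Cy3, from 100 ng of RNA each. The dissected tissue holds bone, its cells and the marrow between the trabeculae, with RNA of all cells mixed.

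The DMM model is widely used for osteoarthritis after injury. The freed meniscus no longer spreads load over the medial tibia, and cartilage wear and a thickened subchondral plate follow over weeks. The subchondral plate is built by osteoblasts, which secrete type I collagen and the mineral-binding protein osteocalcin, and it is resorbed by osteoclasts, which derive from the macrophage lineage of the marrow. The spaces between trabeculae hold blood-forming cells, megakaryocytes that shed platelets, resident macrophages, sinusoidal endothelium, and stromal cells that can become osteoblasts or adipocytes.

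All values are log2 fluorescence intensities from which the array's own 75th percentile was subtracted, so a level of 0 means the brightness of that percentile and a difference of 1 means a doubling. Differences are DMM minus sham, with the standard error (SE) of a limma fit that holds the slide as a block, n = 4 arrays per group. Of 27178 genes tested, 0 (0%) passed the threshold of an adjusted p under 0.05, and the lowest adjusted p was 1.00. The unadjusted p lay under 0.05 for 709 genes (2.61%), of which 285 were higher and 424 lower after DMM. That count was 1110 without DMM replicate 1, 2646 without DMM replicate 2 and 465 without DMM replicate 4, with 0 genes past the threshold each time. The differences below are therefore measured values with their errors, and none is a change that passed the test across all genes. Most genes named below were chosen from these same arrays for a small unadjusted p, separate groups or a large difference. Their unadjusted p, intervals and ranges with 1 array left out therefore describe them and test nothing. A difference above 0 was found for 50.8% of genes. Within slide 1 and within slide 2 alike, 28.2% of genes were higher after DMM and 27.4% were lower. The 4 values of the groups did not overlap for 298 genes (1.10%), namely 98 higher (0.361%) and 200 lower (0.736%). A difference of 1 or more in size was seen for 172 genes (0.633%).

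Signal at the 75th percentile was 509 to 883 on the 8 arrays, 67.7% to 79.6% of probes were well above background, and 0 spots were saturated. Each slide held 2 sham and 2 DMM arrays of 1 week, with replicates 1 and 2 of each group on slide 1 and replicates 3 and 4 on slide 2. The first principal component, with 43.8% of the variance, split the slides. On it slide 1 arrays lay from -87.5 to -7.51 and slide 2 arrays from 30.5 to 49.3. DMM replicate 2 stood apart at -87.5, where the other 7 arrays ran from -40.2 to 49.3. Its median distance from the gene means was 0.35 against 0.16 to 0.24 on the others. On the second component DMM replicate 1 lay at 67.3 and the other arrays from -32.9 to 9.07. The SD between arrays was larger after DMM than after sham for 68.6% of genes, with medians of 0.35 and 0.27. Without DMM replicate 2 it was larger for 47.3%. DMM replicate 1 was the highest array for many stromal lists. List medians are given below with the values they took without 1 array wherever leaving it out turned their sign. Of the markers chosen to check the tissue, the osteoblast genes Bglap and Ibsp, the osteocyte gene Dmp1, the osteoclast genes Acp5 and Ctsk and the marrow genes Alas2, Mpo, S100a8, Vpreb1 and Pf4 were well above background on all 8 arrays, which is the make-up the labels give. The tendon marker Tnmd was above background on 0 of 8 arrays and the muscle marker Ckm on 2 of 8, both DMM. Other markers of neighbouring tissues were above background on all 8 arrays. These were Prg4 and Scx of synovium and ligament, Acta1 and Mylpf of muscle, and Col2a1, Acan and Col9a1 of cartilage.

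The arrays carry 60-base probes. For several genes the result depends on which probe is read, or the probes belong to near-identical genes. Whether such probes tell those genes apart was not tested. The first 30 bases of 7 such probes are shown 5′ to 3′ in lower case, with mm9 coordinates of the whole probe. The pair for Cd163 gave like differences, the pair for Nupr1 did not, and the last set comes from the osteocalcin cluster. Where the probes lie within the exons was not analysed here.
Cd163, read for the gene, chr6:124280484-124280543, plus strand: cagtgcatcatgtccaaatatgacatgtcc
Cd163, other probe, chr6:124270436-124270495, plus strand: tgttttacaatggtacatggggcagtattg
Nupr1, read for the gene, chr7:133766978-133767037, minus strand: caatggatacaggacatcacacccagcaat
Nupr1, other probe, chr7:133769416-133769475, minus strand: tttcagtatgtatgctgccactacctcctg
Bglap, read for the gene, chr3:88188307-88188366, minus strand: agcagcttggcccagacctagcagacacca
Bglap2, chr3:88181822-88181881, minus strand: cagtgtgagcttaaccctgcttgtgacgag
Bglap3, chr3:88172673-88172732, minus strand: aaaccagtatggcttaaagaccgcctacag

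Most genes of the collagen network had higher means after DMM. All 17 members of the list of fibrillar and fibril-associated collagens were higher, 16 of them within both slides. The median difference was 0.54 where the median over all genes was 0.0033. That list leaves out the cartilage collagens Col2a1 and Col9a1, which differed by 0.069 ± 0.50 and -0.29 ± 0.47. Col3a1, the type III collagen of soft and healing tissue, gave 0.24, 0.96, -0.50 and 1.69 on sham replicates 1 to 4 and 3.24, 0.0093, 2.09 and 3.83 on DMM replicates 1 to 4. DMM replicates 1, 3 and 4 lay above every sham array and replicate 2 lay below 3 of them, for a difference of 1.70 ± 0.81 (1.02 and 2.37 within slides 1 and 2). Its 2 other probes gave 0.63 and 1.42. Col14a1, a collagen found on the surface of fibrils, measured -0.28, -0.90, -1.86 and -1.36 in sham and 0.37, 0.63, -1.55 and -0.24 in DMM. Here it was DMM replicate 3 that lay within the sham range, and the difference was 0.90 ± 0.30 (1.09 and 0.71 within slides; limma's unadjusted p = 0.0171). Col15a1, a basement membrane collagen, differed by 0.63 ± 0.36, and Col5a3, a regulator of fibril diameter, by 0.48 ± 0.27 (other probe 0.13). Of the fibrillar and fibril-associated list 1 member had an unadjusted p under 0.05 (5.88%, against 2.61% of all genes). Groups did not overlap for 0 members, against 1.10% of all genes. The list's mean on each array was -0.14, -0.036, -0.80 and -0.21 in sham and 1.27, -0.25, -0.44 and 0.61 in DMM, each gene centred on its mean over the 8 arrays. DMM replicates 1 and 4 were thus above all sham arrays, while replicates 2 and 3 lay among them. The median was 0.23 without DMM replicate 1 and 0.75 without DMM replicate 2.

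Enzymes that process and cross-link collagen gave the same picture at smaller size. All 21 of 21 were higher, 18 of them within both slides, with a median of 0.28 (0.14 without DMM replicate 1, 0.14 without DMM replicate 4). Pcolce, which enhances the cleavage of procollagen, read 4.92, 5.14, 4.25 and 5.30 in sham and 6.21, 5.59, 4.61 and 5.76 in DMM, a difference of 0.64 ± 0.33 (other probe 0.63). Groups overlapped, with DMM replicates 1, 2 and 4 above every sham array. Loxl2, a lysyl oxidase that cross-links collagen, gave 0.79 ± 0.53 (other probe 0.52), the prolyl hydroxylase subunit P4ha3 0.57 ± 0.32 (other probe -0.34), and Bmp1, the procollagen C-proteinase, 0.36 ± 0.24 (2 other probes at 0.032 and 0.41).

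Among small leucine-rich proteoglycans, which coat collagen fibrils, 10 of 11 members were higher (median 0.21, and -0.12 without DMM replicate 1). Podn (podocan) differed by 1.25 ± 0.67, but its values of -1.82, -2.28, -2.32 and -4.13 in sham and -1.78, 1.26, -2.55 and -2.49 in DMM show that 1 array, DMM replicate 2, stood far above the other 7. Fmod (fibromodulin) differed by 0.88 ± 0.51, chiefly in slide 1 (1.61 and 0.14 within slides). For biglycan, Bgn, the difference was 0.39 ± 0.19, with its 2 other probes at -0.15 and 0.14, and for decorin, Dcn, 0.53 ± 0.43. Of 23 matricellular and fibroblast genes 16 were higher and 7 lower (median 0.21, 0.041 without DMM replicate 1). Thbs2, a thrombospondin of connective tissue, measured -0.68, -1.14, -1.06 and -1.14 in sham and 0.022, -0.21, -1.05 and -0.094 in DMM. DMM replicates 1, 2 and 4 exceeded all sham arrays and replicate 3 did not, for a difference of 0.68 ± 0.23 (0.82 and 0.53 within slides). Its relative Thbs3 differed by 0.66 ± 0.28 (other probe 0.72) and Tagln, an actin-binding protein of smooth muscle and myofibroblasts, by 0.44 ± 0.18. Tnn (tenascin-W), a matrix protein of bone and periosteum, differed by 1.64 ± 0.81 (other probe 1.62) and was above background on 3 of 4 arrays of each group. Unadjusted p was under 0.05 for Thbs2, Thbs3 and Tagln, 3 of 23 in that list. The tendon, ligament and synovial lining list, whose cells border the dissected bone, was higher in 9 of 11 members (median 0.11). Its summed linear level was 49.6 to 86.2 times the 75th percentile on sham arrays and 49.3 to 72.5 on DMM arrays, and its part in the matrix values was not tested.

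**Figure D1:**
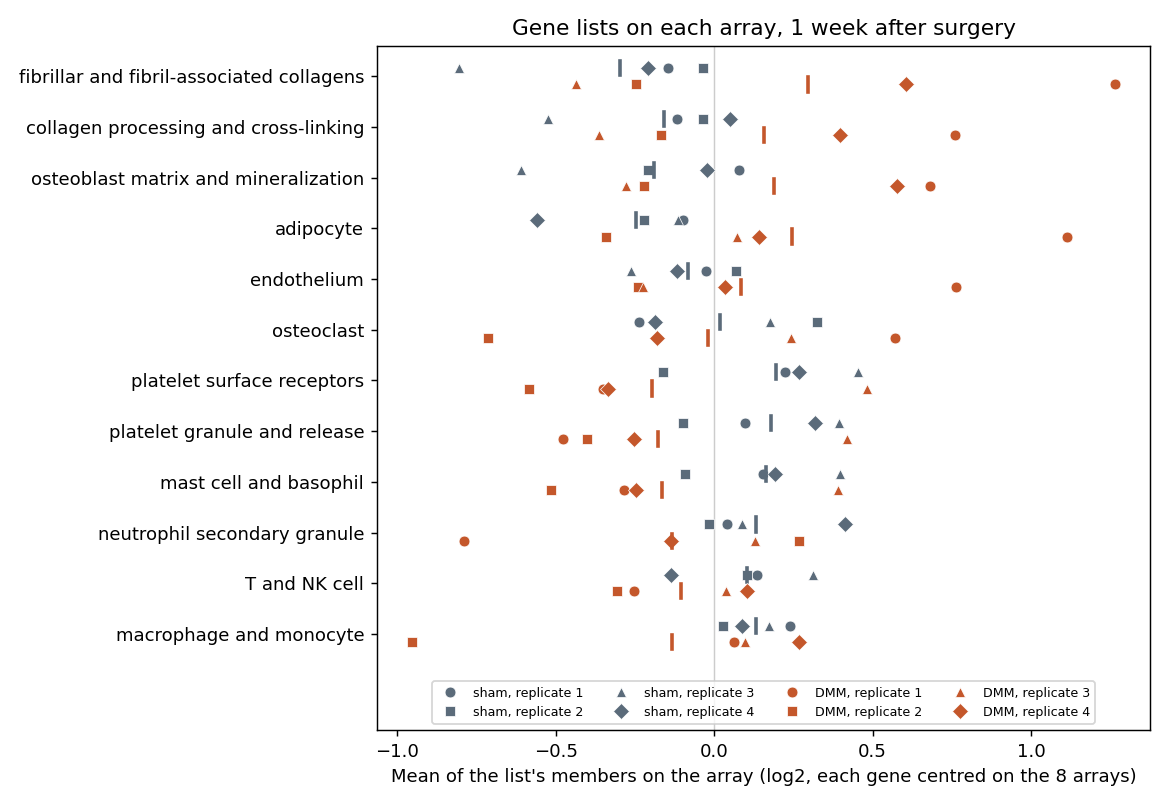
Mean of each gene list on each of the 8 arrays (x axis, log2 with every gene centred on its mean over the 8 arrays); points are arrays, shapes mark the replicate and vertical bars the group mean. DMM replicates 1 and 4 sit to the right for the 3 matrix and bone lists, and DMM replicates 1, 2 and 4 sit to the left of DMM replicate 3 for both platelet lists.

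Osteoblast matrix genes were higher in 18 of 20 members, 15 of them within both slides, with a median of 0.31 (0.37 and 0.41 within slides 1 and 2). The median was 0.26 without DMM replicate 1 and 0.13 without DMM replicate 4. Bglap, which encodes osteocalcin, measured 7.0, 5.35, 5.45 and 6.17 in sham and 7.94, 6.01, 6.63 and 8.01 in DMM. Replicates 1 and 4 of DMM exceeded all sham arrays, while replicates 2 and 3 lay within the sham range. The difference was 1.16 ± 0.55, with a 95% interval of -0.12 to 2.43, and the other Bglap probe gave 1.16. Its neighbours in the osteocalcin cluster, Bglap2 and Bglap3, differed by 0.72 ± 0.39 and 0.76 ± 0.39. Over the 8 arrays their probes ranked sham replicate 1 and DMM replicates 1 and 4 as the 3 highest, as the Bglap probe did. Because these genes are near copies of each other, a probe may bind the transcript of more than 1 of them. Enpp1, which makes the mineralization inhibitor pyrophosphate, differed by 0.41 ± 0.21 (2 other probes at 0.16 and 0.18). Col1a1, the main collagen of bone and named here after its values were seen, differed by 0.38 ± 0.26, with its 3 other probes between 0.28 and 0.62. Of the list 0 members had an unadjusted p under 0.05, against 2.61% of all genes.

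Transcription regulators of the osteoblast line were higher in 11 of 15 (median 0.19, 0.037 without DMM replicate 1). Dlx3, a homeobox factor of bone and teeth, read 3.31, 2.95, 2.25 and 2.45 in sham and 3.82, 3.51, 2.34 and 3.03 in DMM and differed by 0.43 ± 0.19. Runx2, on which osteoblast formation depends, differed by 0.35 ± 0.21, with its 2 other probes at -0.096 and 0.0032. Irx5, another homeobox factor but outside that list, differed by 0.41 ± 0.18 (0.58 and 0.24 within slides). Osr1, a factor of limb connective tissue and no member of that list, had groups that did not overlap, with -3.36, -3.72, -3.11 and -3.09 in sham and -2.58, -2.15, -2.86 and -2.83 in DMM (difference 0.72 ± 0.22). Osteocyte genes were higher in 8 of 12 (median 0.28), and Dmp1, a mineral-regulating protein of osteocytes, differed by 0.44 ± 0.35. The osteocyte median was 0.018 without DMM replicate 1 and 0.51 without DMM replicate 2, so these 2 arrays pulled it in opposite directions.

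Of 18 osteoclast genes, the genes of the resorbing cells, 9 were higher and 9 lower, with a median of 0.0085. Acp5, the tartrate-resistant acid phosphatase, measured 8.65, 8.95, 9.11 and 8.48 in sham and 8.83, 8.29, 9.08 and 8.83 in DMM, a difference of -0.042 ± 0.21 with a 95% interval of -0.52 to 0.44. Ctsk (cathepsin K), which digests bone collagen, measured 6.90, 7.76, 7.36 and 6.68 in sham and 8.0, 5.87, 7.53 and 6.97 in DMM, a difference of -0.083 ± 0.46. Both genes were lowest on DMM replicate 2. The osteoclast median was -0.28 without DMM replicate 1 and 0.29 without DMM replicate 2. In the RANKL and M-CSF axis, the signals that drive osteoclast formation, 2 of 8 members were higher (median -0.012, from -0.13 without DMM replicate 1 to 0.069 without DMM replicate 2).

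Among secreted regulators, Sfrp2, a Wnt-binding protein of mesenchymal cells, was well above background on 1 of 4 sham and 3 of 4 DMM arrays. It therefore passed the filter on dim probes mainly through the group where it is high, and 3 of its 4 sham values were not well above background. It measured -5.86, -6.97, -6.16 and -5.86 in sham and -4.95, -5.23, -4.88 and -4.61 in DMM, so each DMM array lay above each sham array. The difference was 1.29 ± 0.24, 1.32 and 1.26 within slides 1 and 2, and 1.07 to 1.51 with each array left out in turn. Sfrp2 was picked for its small unadjusted p and separate groups, so these values test nothing. Of the 11 secreted Wnt antagonists 7 were higher (median 0.13, from 0.022 without DMM replicate 1 to 0.31 without DMM replicate 2), among them Frzb, an antagonist of joint cartilage, at 0.99 ± 0.50 (1.58 and 0.40 within slides). Wnt ligands were higher in 8 of 11 (Wnt10b 0.35 ± 0.20, other probe 0.20) and Wnt targets and mediators in 12 of 19 (the R-spondin receptor Lgr6 0.44 ± 0.19, other probe 0.18). The median of the targets, 0.11, ran from -0.032 without DMM replicate 4 to 0.31 without DMM replicate 2. Inhbb, the beta-B subunit of activins and inhibins, gave -2.09, -2.11, -1.78 and -1.44 in sham and -0.51, -1.67, -1.43 and -0.68 in DMM. DMM replicates 1, 3 and 4 were above all sham arrays, replicate 3 only just, for a difference of 0.78 ± 0.29 (1.01 and 0.55 within slides). It was the 1 member of 22 in the TGF-beta and activin list with an unadjusted p under 0.05 (4.55%, against 2.61% of all genes). In that list 6 members were higher and 16 lower (median -0.061, from -0.18 without DMM replicate 1 to 0.13 without DMM replicate 2). Bmp2, a bone-inducing ligand, differed by 0.57 ± 0.25, in a list with 13 of 22 members higher (median 0.034, from -0.099 without DMM replicate 1 to 0.20 without DMM replicate 2). Igfbp6, which binds insulin-like growth factor II, differed by 0.75 ± 0.35, and the IGF axis was higher in 8 of 12 (median 0.11, from -0.04 without DMM replicate 1 to 0.19 without DMM replicate 2).

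Differences of the 23 adipocyte genes ran from -0.12 to 2.20. Of them 15 were higher, 14 of them within both slides (60.9% of the list, against 28.2% of all genes) and 0 lower within both. An unadjusted p under 0.05 was found for 5 (21.7%, against 2.61% of all genes). Cfd (adipsin), a serine protease that fat cells secrete, measured 1.81, 1.17, 2.90 and 0.32 in sham and 5.13, 2.36, 3.73 and 3.77 in DMM. DMM replicate 2 lay below sham replicate 3, and the other DMM arrays were above all sham arrays. The difference of 2.20 ± 0.69 (95% interval 0.62 to 3.78) was 2.26 and 2.14 within slides, and the other Cfd probe gave 2.22. Plin4, a coat protein of lipid droplets, measured -1.22, -1.40, -1.22 and -2.21 in sham and 0.95, -0.74, -0.80 and -0.46 in DMM with no overlap, a difference of 1.25 ± 0.37 (limma's unadjusted p = 0.0103). Adig (adipogenin) also had groups that did not overlap, at -2.35, -2.77, -2.62 and -3.68 in sham and -0.29, -2.22, -2.27 and -2.29 in DMM. Its difference of 1.09 ± 0.42 rested largely on DMM replicate 1, which stood far above the other DMM arrays. Cidec, which enlarges lipid droplets, differed by 1.59 ± 0.73, the lipogenic regulator Thrsp by 1.30 ± 0.72 (other probe 1.05), the desaturase Scd1 by 1.03 ± 0.72 (other probe 1.01) and Plin1 by 0.76 ± 0.30 (other probe 0.26). Adipoq (adiponectin), a defining marker of fat cells, measured 2.95, 2.49, 2.42 and 2.38 in sham and 4.03, 2.08, 3.09 and 3.39 in DMM, a difference of 0.59 ± 0.39. Adipoq, Plin1 and Cfd were well above background on all 8 arrays. The summed linear level of the 23 genes was 83.1 to 92.8 times the 75th percentile on sham and 99.7 to 204 on DMM arrays. These ranges did not overlap, but they did overlap without the brightest member, Car3 (63.2 to 68.3 and 65.2 to 147). The list median of 0.20 became 0.045 without DMM replicate 1 and 0.68 without DMM replicate 2. In bulk tissue, more cells of a type and more RNA per cell cannot be told apart, and that holds for every cell type list here.

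Cartilage genes differed between slides. Of 19 members 15 were higher, with a median of 0.09 that was 0.64 and -0.11 within slides 1 and 2. With 1 array left out the median ran from -0.09 without DMM replicate 1 to 0.40 without DMM replicate 2. Acan (aggrecan), the main proteoglycan of cartilage, measured -3.46, -2.11, 0.38 and -0.43 in sham and 0.42, -1.29, 0.30 and 0.17 in DMM. The sham arrays of slide 1 were far below those of slide 2, which is where most of its difference of 1.31 ± 0.56 came from (2.36 and 0.26 within slides). Col2a1, the defining collagen of cartilage, measured 3.28, 2.01, 2.85 and 2.93 in sham and 4.11, 1.69, 2.63 and 2.90 in DMM, a difference of 0.069 ± 0.50. Cilp, a protein of the middle cartilage layer, differed by 1.97 ± 0.90, with signal above background on 2 of 4 sham and 3 of 4 DMM arrays. Col10a1, made by hypertrophic chondrocytes, measured -3.73, -4.55, -3.43 and -1.33 in sham and 0.84, -2.31, -0.14 and -2.54 in DMM, where sham replicate 4 exceeded DMM replicates 2 and 4. Its difference was 2.22 ± 0.91 and that of Ihh (Indian hedgehog), which directs hypertrophy, 0.51 ± 0.24 (other probe 0.57). The summed cartilage level was 23.8 to 43.8 on sham and 25.4 to 92.9 on DMM arrays, and how much calcified cartilage was cut with the bone was not tested.

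Endothelial genes were higher in 21 of 24 (median 0.15, and -0.036 without DMM replicate 1). Ramp2, a co-receptor for adrenomedullin in vessels, had the largest difference of the list at 0.51 ± 0.24 (other probe 0.50). Its values were 1.45, 1.47, 0.91 and 1.40 in sham and 2.38, 1.51, 1.34 and 2.02 in DMM, where DMM replicate 3 lay within the sham range.

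Of 26 macrophage and monocyte genes 21 were lower. The 8 lower within both slides (30.8%) were near the share over all genes (27.4%). Groups did not overlap for 2 of the 26 (7.69%), against 1.10% of all genes. The list median of -0.17 was -0.42 and 0.070 within slides 1 and 2, so its sign turned, and it was 0.13 without DMM replicate 2. Cd163, the scavenger receptor for haptoglobin-hemoglobin complexes, measured 0.21, -0.08, 0.56 and 0.42 in sham and -1.14, -1.60, -0.32 and -0.096 in DMM. Each DMM array lay below each sham array, with the lowest 2 on slide 1. The difference was -1.07 ± 0.20, or -1.44 and -0.70 within slides 1 and 2 (95% interval -1.53 to -0.61; limma's unadjusted p = 0.000704), and the other probe printed above gave -1.14. With each array left out in turn it ran from -1.19 to -0.90. Cd163 was picked for its small unadjusted p and separate groups, so these values describe it and test nothing. Its adjusted p was not under the threshold. Cd209f, a C-type lectin of the DC-SIGN family and a member of none of the lists, measured -0.78, -0.99, 0.13 and -1.28 in sham and -2.75, -4.23, -1.30 and -1.76 in DMM, without overlap and with a difference of -1.77 ± 0.49 (-2.60 and -0.95 within slides). Its lowest array was DMM replicate 2. Vsig4, the complement receptor of tissue macrophages, was well above background on 4 of 4 sham and 0 of 4 DMM arrays. It therefore passed the filter on dim probes only through the group where it is high. Its mean was at least 1.29-fold lower after DMM. This bound sets the sham mean against the lowest signal well above background on each DMM array, or against the probe's own signal where that was higher. The measured difference was -1.15 ± 0.42 (-1.94 and -0.37 within slides). Groups overlapped, with DMM replicate 4 at -4.68 and sham replicates 1 to 3 at -4.97, -4.86 and -5.45. Timd4, a receptor for dying cells, differed by -1.16 ± 0.51 (-1.98 and -0.33 within slides), again lowest on DMM replicate 2 at -6.60. Slc40a1 (ferroportin), which exports iron from macrophages, measured 3.62, 3.52, 3.51 and 3.35 in sham and 3.32, 2.81, 3.32 and 3.14 in DMM, without overlap and with a difference of -0.35 ± 0.16 (other probe -0.24). Cd5l, secreted by macrophages, differed by -1.04 ± 0.60, but by -2.28 and 0.19 within slides, so the sign turned.

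General markers of the macrophage lineage had small differences beside their errors. Csf1r gave -0.0022 ± 0.19, Cd68 0.032 ± 0.34, Lyz2 -0.024 ± 0.15 and Adgre1 -0.10 ± 0.23, and none of the 4 kept its sign when each array was left out in turn. They were named after their values were seen. The list's mean was 0.24, 0.027, 0.17 and 0.089 on sham and 0.062, -0.95, 0.098 and 0.27 on DMM arrays, so DMM replicate 2 was low and the other 3 lay at or near the sham range. Cd163 without that array was -0.90. On the same array the erythroid mean was -1.07 and that of MHC class II genes was -0.80.

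Platelet genes were lower on 3 of 4 DMM arrays. Of 19 surface receptor genes 17 were lower, 17 within both slides (median -0.40), and of 19 granule and release genes 19 were lower, 16 within both slides (median -0.43). Over all genes 27.4% were lower within both slides. Gp5, a subunit of the receptor for von Willebrand factor, measured -0.41, -0.79, 0.37 and 0.047 in sham and -1.50, -1.55, 0.082 and -0.80 in DMM. DMM replicate 3 lay between the 2 highest sham arrays and the rest were below every sham array, for a difference of -0.75 ± 0.22 (-0.93 and -0.57 within slides; limma's unadjusted p = 0.00917). Gp1ba, the ligand-binding subunit of that receptor, measured 1.31, 1.20, 1.75 and 1.79 in sham and 0.44, 0.32, 1.76 and 0.55 in DMM, a difference of -0.75 ± 0.25. Treml1, stored in platelet granules, gave 3.75, 3.48, 4.21 and 4.0 in sham and 2.71, 2.66, 4.26 and 3.1 in DMM, a difference of -0.68 ± 0.26 (other probe -0.71). In each of these genes DMM replicate 3 was at the sham level. The thrombin co-receptor F2rl2 differed by -0.71 ± 0.29, the granule protein Mmrn1 by -0.63 ± 0.24, Rab27b, which directs granule release, by -0.64 ± 0.25 (other probe -0.40), the lipoxygenase Alox12 by -0.62 ± 0.24 (other probe -0.46) and the chemokine Pf4 by -0.57 ± 0.24. In both lists together 8 genes had an unadjusted p under 0.05 (4 in each, or 21.1% of each list, against 2.61% of all genes). Groups did not overlap for 0 of them, against 1.10% of all genes. Whether a list departs from all genes was not tested. The array means were 0.22, -0.16, 0.45 and 0.27 in sham and -0.35, -0.58, 0.48 and -0.33 in DMM for surface receptors, and 0.097, -0.099, 0.39 and 0.32 in sham and -0.48, -0.40, 0.42 and -0.25 in DMM for granule genes. The surface median ran from -0.69 without DMM replicate 3 to -0.22 without DMM replicate 4.

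Other blood lineages gave smaller values. Mast cell and basophil genes were lower in 13 of 13 (median -0.29), with Rasgrp4, a signalling protein of mast cells, at -0.64 ± 0.22 (other probe -0.30), Gata2, a factor of mast and progenitor cells, at -0.54 ± 0.25, and the stem cell factor receptor Kit at -0.32 ± 0.15 (2 other probes at -0.24 and -0.14). Their array means of 0.16, -0.091, 0.40 and 0.19 in sham and -0.28, -0.52, 0.39 and -0.25 in DMM again put DMM replicate 3 with the sham arrays. Secondary granule genes of neutrophils were lower in 10 of 10 (median -0.25) and mature neutrophil genes in 16 of 18 (median -0.26). Without DMM replicate 1 these medians were -0.014 and -0.051. Cxcr2, the chemokine receptor that draws neutrophils from marrow, differed by -0.54 ± 0.32, the stefin Stfa2l1 by -0.48 ± 0.27, the integrin gene Itgb2l by -0.39 ± 0.20 (other probe -0.13) and the chemokine Ccl6 by -0.47 ± 0.19. T and NK cell genes were lower in 19 of 20 (median -0.18), but only 10 were lower within both slides. Their medians were -0.36 and -0.024 within slides 1 and 2. The co-receptor Cd8a differed by -0.27 ± 0.12 (other probe -0.22) and the T-cell receptor component Cd3g by -0.44 ± 0.21. B cell precursor genes were higher in 14 of 14 (median 0.25, from -0.081 without sham replicate 4 to 0.58 without DMM replicate 2), but within slides the medians were -0.54 and 1.08. Only 1 of these genes was higher within both slides. Rag1, which rearranges immunoglobulin genes, thus gave -0.53 and 1.46 within slides. Erythroid genes were higher in 12 of 28 (median -0.06, -0.30 without DMM replicate 1 and 0.27 without DMM replicate 2).

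**Figure D2:**
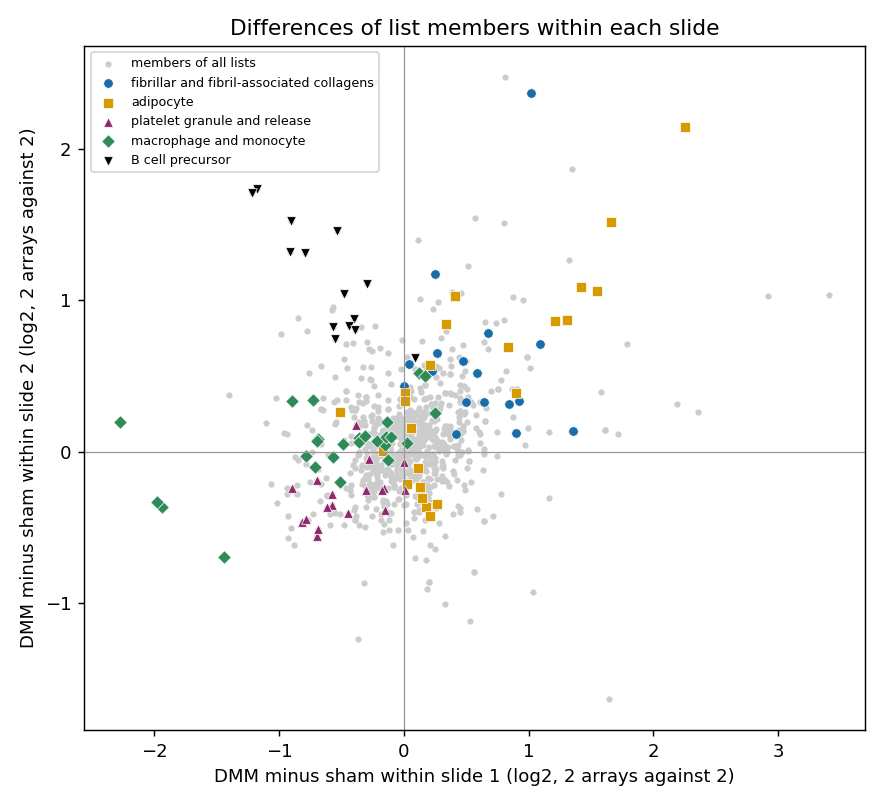
DMM minus sham of list members within slide 1 (x axis) and within slide 2 (y axis), log2, 2 arrays against 2 in each; grey points are the members of all lists and coloured points those of 5 lists. Fibrillar collagens lie at the upper right, with 16 of 17 higher within both slides, platelet granule genes in the lower left with 16 of 19 lower within both, and B cell precursor genes in the upper left with medians of -0.54 and 1.08.

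Joint injury commonly brings an early inflammatory response. In this bone 12 of 29 genes of early joint injury were higher and 17 lower (median -0.08, from -0.097 without sham replicate 4 to 0.032 without DMM replicate 2). Saa3, an acute-phase protein, measured -3.28, -3.32, -3.22 and -2.09 in sham and -2.96, -0.94, -2.94 and 1.37 in DMM. The difference of 1.61 ± 0.88 came from DMM replicates 2 and 4, while replicates 1 and 3 lay among the sham arrays. Cxcl10, an interferon-induced chemokine, measured -1.42, -1.39, -0.19 and -1.0 in sham and -1.03, -2.51, -1.70 and -1.96 in DMM, a difference of -0.80 ± 0.35. Nfkbia, the inhibitor of NF-kB that NF-kB itself induces, had groups that did not overlap, with 4.41, 4.46, 4.57 and 4.50 in sham and 4.32, 4.40, 4.19 and 4.18 in DMM, at a small difference of -0.21 ± 0.12. Timp1, an inhibitor of metalloproteinases, differed by 0.44 ± 0.20 and Tnfaip6, an anti-inflammatory matrix-binding protein, by 0.37 ± 0.19. Of the aggrecanases, Adamts1 differed by 0.37 ± 0.17 and Adamts5 by 0.36 ± 0.19 (other probe -0.095), in a list where 11 of 14 ADAMTS proteases were higher (median 0.13, 0.0072 without DMM replicate 4). Metalloproteinases were higher in 9 of 13 (median 0.097). Plat (tissue plasminogen activator) differed by 0.92 ± 0.42, nearly all of it in slide 1 (1.71 and 0.12 within slides). Interferon response genes were higher in 9 of 22 (median -0.046, from -0.094 without DMM replicate 1 to 0.037 without DMM replicate 2).

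Stress genes of the Atf4 pathway held 3 of the members whose groups did not overlap. That was 14.3% of the list's 21 genes, where the share over all genes was 1.10%. Nupr1, a stress-induced chromatin protein, measured 3.29, 2.80, 2.82 and 3.22 in sham and 4.57, 3.44, 3.58 and 4.47 in DMM, a difference of 0.98 ± 0.30 (0.96 and 1.0 within slides). The other Nupr1 probe, printed above and weaker, gave -0.025. Trib3, a pseudokinase that Atf4 induces, measured -1.39, -1.0, -1.67 and -1.15 in sham and -0.78, -0.97, -1.0 and -0.78 in DMM, a difference of 0.42 ± 0.17. Its groups all but touched, with the highest sham value at -0.99613 and the lowest DMM value at -0.99605. Atf4 itself, the factor that drives this response, measured 5.64, 5.66, 5.55 and 5.69 in sham and 5.75, 5.75, 5.70 and 5.71 in DMM. All 4 DMM arrays were above all sham arrays, yet the difference was only 0.09 ± 0.11 (other probe 0.19). Ddit3 (CHOP), a pro-apoptotic factor of the pathway, differed by 0.27 ± 0.17 (other probe 0.10). Of the 21 genes of the integrated stress response 14 were higher, 9 within both slides, with a median of 0.12. Their summed level was 162 to 171 times the 75th percentile on sham and 181 to 203 on DMM arrays, ranges that did not overlap. Without Atf4, the brightest member, they were 112 to 121 and 129 to 149, and without Atf4 and Ppp1r15a 93.4 to 105 and 102 to 142. Immediate early genes were higher in 14 of 26 (median 0.0078, from -0.06 without sham replicate 4 to 0.042 without DMM replicate 4). Fos, a factor induced within minutes of a stimulus, measured 0.41, 0.95, 0.17 and 0.31 in sham and 1.15, 1.46, 0.54 and 0.60 in DMM, a difference of 0.47 ± 0.16, whereas its relative Fosl1 gave -0.50 ± 0.25. Hspa1a, a heat-shock chaperone, differed by 1.06 ± 0.42. Its values of -1.01, -1.18, -3.99 and -3.04 in sham and -1.39, 0.34, -2.33 and -1.62 in DMM differed more between the slides than between the operations.

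Pain and nerve growth accompany osteoarthritis, so genes of nerve are given too. Penk, the enkephalin precursor, measured -0.91, -0.31, -1.07 and -0.73 in sham and -1.64, -1.46, -1.08 and -1.27 in DMM without overlap, a difference of -0.61 ± 0.21, but -0.035 on its other probe. The myelin gene Mbp differed by -0.32 ± 0.13 (2 other probes at 0.080 and 0.14), while the list of nerve and Schwann cell genes had 5 of 11 members higher (median -0.017, from -0.18 without sham replicate 4 to 0.12 without sham replicate 1). Mbp is also made by blood-forming cells. Calca, which encodes the neuropeptide CGRP, gave -4.87, -5.21, -4.36 and -0.55 in DMM and -5.39, -4.22, -4.55 and -5.25 in sham, so its difference of 1.11 ± 0.87 came from DMM replicate 4 alone. Gdnf, a survival factor for neurons, differed by -0.64 ± 0.29 and was above background on 3 of 4 sham and 2 of 4 DMM arrays. Skeletal muscle genes were higher in 11 of 18 (median 0.057, from -0.13 without DMM replicate 2 to 0.10 without sham replicate 4), with a summed level of 11 to 11.7 on sham and 9.16 to 16.1 on DMM arrays. Myoz1, a protein of the muscle Z-disc, differed by 1.25 ± 0.72, chiefly through DMM replicate 2 at -2.18, where the other DMM arrays gave -5.66 to -4.89. The troponin gene Tnnc2 differed by 0.40 ± 0.13.

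**Figure D3:**
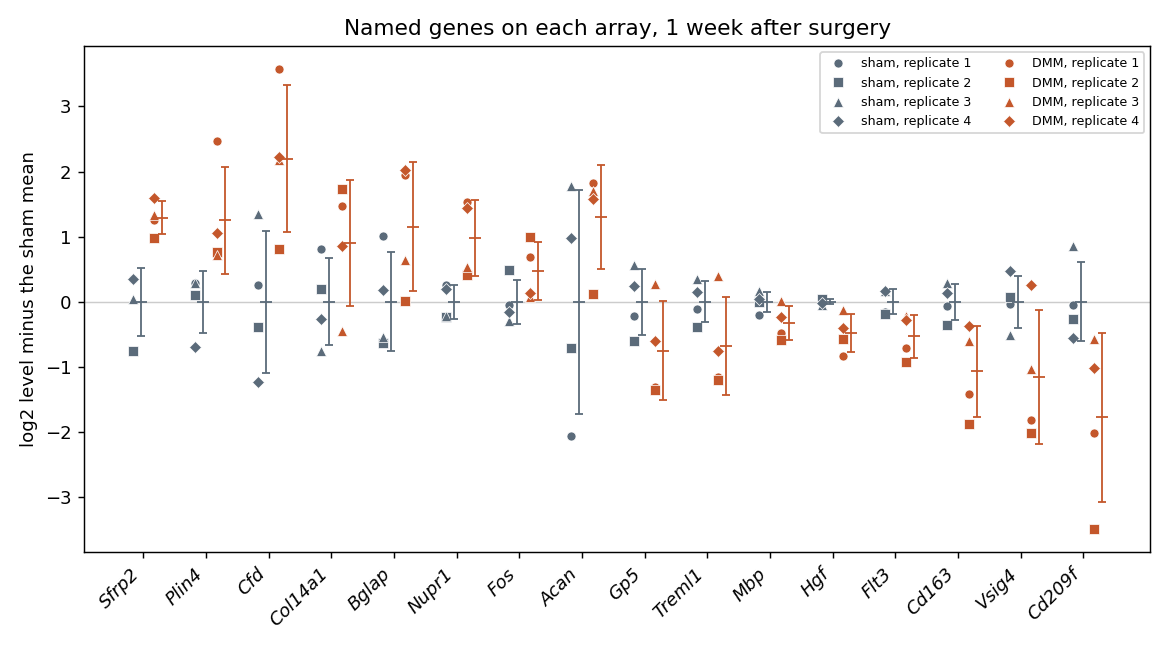
Level of 16 genes on each of the 8 arrays (y axis, log2, minus the mean of the 4 sham arrays); points are arrays, shapes mark the replicate, and bars give each group's mean and SD. For Sfrp2, Plin4, Nupr1, Hgf, Flt3, Cd163 and Cd209f the groups do not overlap, while for Acan the sham arrays run from -3.46 to 0.38 before centring and overlap with the DMM arrays.

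The naming rule took, in each direction, the 12 genes with the smallest unadjusted p among the 62 higher and 113 lower genes that had a current symbol, non-overlapping groups and 1 sign within both slides. Since this rule picks genes by their separation, their values describe them and test nothing. Beside Sfrp2, Plin4 and Osr1, the higher genes included Adcy2, an adenylyl cyclase, at -3.47, -3.50, -3.78 and -3.51 in sham and -2.86, -3.0, -2.97 and -2.82 in DMM (difference 0.65 ± 0.13, other probe 0.16). Pon1, a lipid-metabolising esterase of the blood, differed by 1.05 ± 0.29, with signal above background on 1 of 4 sham and 3 of 4 DMM arrays. Klhl29 (0.91 ± 0.19), the RNA gene U90926 (0.77 ± 0.18), the calmodulin-like gene Calml3 (0.74 ± 0.22) and Zfp939, a zinc finger gene (0.57 ± 0.13), were further members. The list also held Rad51ap2 (0.57 ± 0.15, other probe 0.54), Tnni3, a cardiac troponin (0.54 ± 0.16, other probe 0.61), and Ddah1, which breaks down an inhibitor of nitric oxide synthesis (0.51 ± 0.14). Klhl29 and Rad51ap2 were above background on only 2 of 4 arrays of each group, and U90926 on 2 of 4 sham and 4 of 4 DMM arrays.

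Among the lower genes beside Cd163 and Cd209f, Hgf, the hepatocyte growth factor, had a narrow sham range. It measured -1.69, -1.65, -1.75 and -1.71 in sham and -2.53, -2.27, -1.83 and -2.11 in DMM, a difference of -0.48 ± 0.15 (3 other probes between -0.30 and -0.15). Flt3, a receptor of early blood progenitors and dendritic cells, measured -0.084, -0.11, 0.23 and 0.24 in sham and -0.64, -0.85, -0.15 and -0.21 in DMM, a difference of -0.53 ± 0.12, but -0.0047 on a weaker probe. Dgkg, a diacylglycerol kinase, measured 1.26, 1.11, 1.24 and 1.19 in sham and 0.14, 0.80, 0.93 and 0.63 in DMM, a difference of -0.57 ± 0.18 (other probe -0.55). Ifit1bl1, of the interferon-induced Ifit family, differed by -0.56 ± 0.18 and Adrb1, the beta-1 adrenergic receptor, by -1.19 ± 0.33. Adrb1 was above background on 4 of 4 sham arrays and on 1 of 4 DMM arrays, as was Gpr101 (-1.05 ± 0.26), an orphan receptor. Izumo2 (-1.25 ± 0.33), of a sperm protein family, and Tbc1d22bos (-1.37 ± 0.29), an opposite-strand transcript, were above background on 3 sham arrays and 1 DMM array. AU019990 (-1.32 ± 0.24) and the trypsinogen gene Prss1 (-0.69 ± 0.19) complete the list.

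The difference of DMM and sham at 6 weeks, in other mice, was set beside that at 1 week. SEs at 1 week come from the fit of the 1-week arrays alone. SEs at 6 weeks and of the difference between effects come from a fit of all 16 arrays. The SEs at 1 and 6 weeks are therefore not a like comparison of precision. Over 28250 genes 0 (0%) passed limma's threshold for a difference between the effects, and 274 had an unadjusted p under 0.05. The median SE of that difference was 0.38. It fell to 0.30 without sham replicate 2 of 6 weeks, where 0 genes passed and 543 had an unadjusted p under 0.05. The values below include that array. Plin4 gave 1.25 ± 0.37 at 1 week and -1.09 ± 0.53 at 6 weeks, so the effects differed by -2.34 ± 0.74. Cfd likewise gave 2.20 ± 0.69 and -1.15 ± 0.72, Cidec 1.59 ± 0.73 and -1.14 ± 0.75, and Adig 1.09 ± 0.42 and -0.92 ± 0.60. These 4 are among the adipocyte genes with the largest values at 1 week. Adipoq gave 0.59 ± 0.39 and 0.24 ± 0.48, and the median of the whole adipocyte list was 0.20 at 1 week and -0.11 at 6 weeks. For Cd163 the values were -1.07 ± 0.20 and -0.083 ± 0.50, for Sfrp2 1.29 ± 0.24 and -0.20 ± 0.50, and for Flt3 -0.53 ± 0.12 and 0.20 ± 0.19, near 0 at the later time beside their errors. Most genes picked at 1 week by the naming rule had the other sign at 6 weeks, among them Calml3 (-0.82 ± 0.55) and AU019990 (0.64 ± 0.44). Izumo2, Adrb1 and Gpr101 kept a negative mean at 6 weeks (-0.52 ± 0.35, -0.65 ± 0.45 and -0.49 ± 0.49), and Tnni3 a positive one (0.63 ± 0.36). At 1 week Izumo2, Adrb1 and Gpr101 were each above background on only 1 DMM array. Fibrillar collagens had a median of 0.54 at 1 week and -0.046 at 6 weeks, and platelet granule genes -0.43 and -0.035. Osteoblast matrix genes had 0.31 and 0.13. Genes chosen for a large value at 1 week can be nearer 0 at another time for that reason alone, and none of these differences between times passed the threshold.

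**Figure D4:**
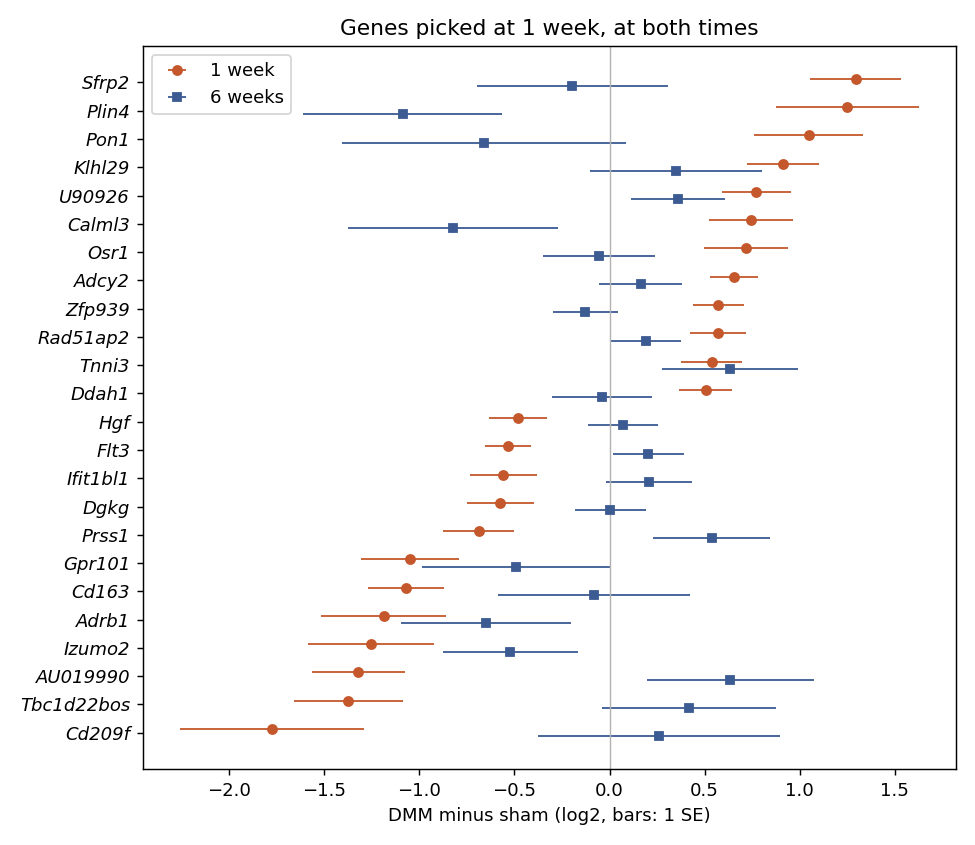
DMM minus sham (x axis, log2) at 1 week and at 6 weeks for the 24 genes picked at 1 week by the naming rule; points are estimates, bars 1 SE, and the 2 times come from different mice. The 1-week points lie away from 0 because they chose the genes, and at 6 weeks Plin4 lies at -1.09 and Cd163 at -0.083.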

How the data were processed

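Medial tibial subchondral bone of 16 mice was measured on Agilent 1-colour arrays, and the 8 arrays of 1 week form the comparison. Per the file headers, Feature Extraction 10.7.3.1 produced the deposited scanner files, whose processed signal is a background-subtracted intensity per spot with a call of whether it is well above background. A second deposited table, read as log2 and made by the authors, gives 1 value per probe. It correlated with the scanner values at r of 0.989 or more and served as an alternative. It was made with limma 3.20.9 per the submitters' processing notes. How it was centred and normalized is not given in the sources used here. Control spots and outlier spots were removed, spots of a probe averaged, and the array's 75th percentile subtracted on the log2 scale. Genes were named by matching the accession to RefSeq (32994 of 56605 probes), then the symbol (10224), then an older symbol (520), and 12867 probes kept the name in the file. A gene needed signal well above background on 4 of the 8 arrays, and the brightest such probe stood for it. The fit used limma 3.58.1 in R 4.3.3 (lmFit, eBayes, slide as a block, 27178 genes, Benjamini-Hochberg over all of them, threshold 0.05). Each slide had 1 scan time, so slide and scan cannot be told apart. The difference of effects used all 16 arrays and 28250 genes. The fit was tested on simulated data. Array number limits the precision, with a median SE of 0.18.

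Named genes were up to 12 per direction by smallest unadjusted p with a current symbol, no overlap and 1 sign within both slides, and from each of 51 lists up to 4 members by smallest p, those without overlap and those with a difference of 1 or more in size. The comparison, lists and rule were chosen with earlier results of these data known. Some genes the rule takes are not reported here. Markers used to check the tissue are named beside. Files were read with the R packages jsonlite 2.0.0 and data.table (version 1.17.8), and figures drawn in Python 3.11.15 with matplotlib 3.10.9. Alternatives changed the slide term, background, scaling, filter, probe rule, variance model and arrays.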

Additional observations from a re-analysis of the deposited data

Results flagged for a closer look

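In 18 groups of 4 arrays, 1 array lay apart from the other 3 by Dixon's test, of 242 groups for single genes (12 found) and 102 for list means (6 found). Chance alone finds about 1 group in 20. No difference between the effects at 1 and 6 weeks passed the threshold of limma.

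DMM replicate 3 was the high array for 3 platelet genes: F2rl2 was at 2.45 there against 0.98 to 1.17 on the other DMM arrays, Gp1ba at 1.76 against 0.32 to 0.55, and Mmrn1 at 1.48 against 0.41 to 0.47. DMM replicate 2 was low for Acan (-1.29 against 0.17 to 0.42) and for the macrophage and monocyte mean (-0.95 against 0.062 to 0.27), and high for Fosl1 (-3.46 against -4.44 to -4.35) and for the hypoxia and glycolysis mean (0.19 against -0.066 to -0.034). DMM replicate 1 was high for Adig (-0.29 against -2.29 to -2.22) and for the mean of mechanosensing and YAP target genes (0.62 against -0.20 to -0.12). It was low for Lyz2 (8.65 against 9.10 to 9.14). DMM replicate 4 was low for Cilp (-6.76 against -3.04 to -2.30).

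Among the sham arrays, replicate 3 was low for Adcy2 (-3.78 against -3.51 to -3.47), for Ramp2 (0.91 against 1.40 to 1.47), for the mean of small leucine-rich proteoglycans (-0.36 against -0.11 to -0.098) and for that of the integrated stress response (-0.16 against -0.029 to -0.0055). Sham replicate 4 was low for Enpp1 (0.23 against 0.53 to 0.56) and high for Saa3 (-2.09 against -3.32 to -3.22). Sham replicate 1 was low for the mature neutrophil mean (-0.18 against 0.22 to 0.24).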

How the results depend on the processing

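For DMM against sham at 1 week, 0 genes passed the threshold under all 23 alternatives, with 316 (all 16 arrays in the fit) to 3493 (array weights) at an unadjusted p under 0.05. For the difference of effects 0 passed under all 29, with 84 to 3179. Within slides the sign turned for Calca (-0.23), Cd68 (-0.13) and Rag1 (-0.53) in slide 1, and for Col2a1 (-0.12), Acp5 (0.16), Cd5l (0.19), Ctsk (0.23), Adgre1 (0.10), Csf1r (0.098) and Lyz2 (0.096) in slide 2. With array weights Ctsk was 0.012, Adgre1 0.090 and Csf1r 0.052. With 1 array left out Acp5 ran from -0.21 to 0.11, Ctsk from -0.45 to 0.41, Col2a1 from -0.45 to 0.52, Adgre1 from -0.27 to 0.15, Cd68 from -0.28 to 0.41, Csf1r from -0.11 to 0.15 and Lyz2 from -0.099 to 0.099. Of the 121 single genes recomputed under each alternative, 111 kept their sign throughout. Of 51 list medians, 28 changed sign when 1 array or another was left out, and 6 moved by over 1 SD of the array means under some alternative, and the cause was not tested. No paired analysis was possible because replicate numbers follow record order and tie no DMM mouse to any sham mouse.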

Other observations

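Several lists had members that lay on 1 side of 0 by small amounts. Cytosolic ribosomal protein genes, which build the ribosome, were higher in 39 of 40 members with a median of 0.093, and 27 of them were higher within both slides. Their array means were -0.13, -0.24, 0.10 and 0.088 in sham and -0.081, -0.24, 0.32 and 0.19 in DMM, so the slide 2 arrays of both groups were the highest. Respiratory chain genes were higher in 30 of 34 (median 0.059). Groups did not overlap for 2 of the 34 (5.88%), against 1.10% of all genes. Uqcrq, a subunit of complex III, measured 5.77, 6.06, 5.90 and 5.97 in sham and 6.16, 6.11, 6.24 and 6.06 in DMM, a difference of 0.22 ± 0.12. Its groups all but touched, with the highest sham value at 6.0554 and the lowest DMM value at 6.0577. Atp5o, a subunit of ATP synthase, measured 5.85, 6.0, 5.95 and 5.98 in sham and 6.10, 6.06, 6.24 and 6.05 in DMM, a difference of 0.17 ± 0.12. Cell division genes were lower in 25 of 30 (median -0.059, from -0.14 without DMM replicate 3 to 0.026 without DMM replicate 4), 18 of them within both slides.

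Circadian clock genes were higher in 6 of 16 (median -0.039, from -0.13 without DMM replicate 1 to 0.15 without DMM replicate 2) and hypoxia and glycolysis genes in 9 of 20 (median -0.02, from -0.11 without DMM replicate 2 to 0.087 without sham replicate 4). Genes of mechanosensing, ion channels included, and of the YAP pathway were higher in 10 of 17 (median 0.051, from -0.11 without DMM replicate 1 to 0.23 without DMM replicate 2). Complement genes were higher in 8 of 16 (median -0.0016, from -0.036 without DMM replicate 3 to 0.12 without DMM replicate 2), a list that also holds Cfd. MHC class II genes were lower in 8 of 10 (median -0.066, from -0.24 without sham replicate 4 to 0.10 without DMM replicate 2), with medians of -0.33 and 0.25 within slides 1 and 2. Mature B cell genes were higher in 8 of 13 (median 0.10, from -0.14 without sham replicate 4 to 0.28 without sham replicate 1), with medians of -0.29 and 0.56 within slides. Marrow stromal reticular genes, which mark the cells that support blood formation, were higher in 6 of 13 (median -0.0065, from -0.15 without sham replicate 4 to 0.092 without DMM replicate 2), among them Nes (nestin) at 0.33 ± 0.14. Of 10 regulators of chondrocytes 4 were higher (median -0.046, from -0.05 without DMM replicate 3 to 0.059 without DMM replicate 4), of 18 genes of nerve growth and axon guidance 13 (median 0.12), and of 7 primary granule genes of neutrophils 1 (median -0.14, from -0.43 without DMM replicate 2 to 0.031 without DMM replicate 4). Inhibitors of metalloproteinases and the plasminogen system were higher in 5 of 12 (median -0.10) and the hypertrophy axis in 6 of 12 (median 0.011, from -0.19 without DMM replicate 1 to 0.24 without DMM replicate 2). The secreted protein Fbln7, a fibulin of bone and teeth, differed by 0.46 ± 0.27.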
